A study of Mus musculus with 29 samples.

Results

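Kupffer cells (KCs), the resident macrophages of the liver, were compared with Ly6C low macrophages of the spleen, both sorted from wild-type mice that received no treatment. The comparison used 7 of the 29 libraries of the series, 4 of KCs and 3 of splenic Ly6C low macrophages, and 12236 of the 23930 genes in the table, those that reached 1 RPM in 3 or more of the 7 libraries. RPM is the read count of a gene scaled to the total mapped to the panel. Expression was measured with an amplicon panel that reads 1 short stretch of each gene, so a level is compared between libraries and never between genes. The other 22 libraries hold Ly6C high and Ly6C low macrophages of spleen and liver from wild-type or Rnaset2-/- mice. Of these, only the wild-type groups (3 libraries each) are set beside the KC values, for some genes. The labels give KCs as F4/80(+), Tim4(+), CD11b(int) and PDCA-1 low, whereas the study's methods name F4/80 and low CD11b for KCs and use PDCA-1 to divide KC subsets. Splenic cells were gated as CD11b(+), Fcgr4(+) and Ly6C low, without Ly6G, SiglecF or NK1.1. Mice were C57BL/6, bought as both sexes for the study as a whole, and the sex and age behind each library are not given. Livers were digested warm with enzymes, whereas spleens were minced and depleted of lymphocytes, neutrophils and red cells by magnet before the sort. Organ, cell type and way of isolation cannot be told apart in this comparison.

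As background, KCs line the sinusoids of the liver, where they take up bacteria, aged blood cells and iron from the passing blood. They keep their identity through signals from neighbouring endothelial cells, stellate cells and hepatocytes, among them Notch ligands, TGF-beta family ligands and ligands of the nuclear receptor LXR-alpha. Ly6C low cells with the Fc receptor Fcgr4 depend on the orphan nuclear receptor Nr4a1 and are known for crawling along vessel walls, and in spleen they are distinct from the resident macrophages of the red pulp and marginal zone, which were not sorted here.

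Timd4, Itgam and Fcgr4 differed between the populations in the direction of the gates. Timd4, the gene of Tim4, stood at 415, 448, 166 and 431 RPM in KC replicates 1 to 4 and 3.005, 1.37 and 1.54 RPM in splenic replicates 1 to 3, the order used throughout. Adgre1, the gene of F4/80, ranged from 201 to 587 RPM against 101 to 135, and Itgam, the gene of CD11b, from 93.4 to 131 against 1754 to 2166. Fcgr4 ranged from 173 to 329 RPM in KCs and from 769 to 821 in splenic cells. Bst2, the gene of PDCA-1, was at 387 to 533 RPM in KCs, which the labels alone describe as PDCA-1 low, and 80.7 to 86.3 in splenic cells, which had no such gate. Ly6g and Siglecf, genes of antigens excluded from the splenic sort, were low in both populations. Ly6g was at 0 to 0.998 RPM in KCs and 4.61 to 7.96 in splenic cells, and Siglecf at 0.524 to 17.6 against 0.559 to 1.03. Xist ranged from 647 to 949 RPM in KCs and 476 to 695 in splenic cells, and 4 Y-linked genes were listed at 0 in all 7 libraries.

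KC replicate 3 stood apart from the other KC libraries. Its log2 values correlated with theirs across genes at r of 0.938 to 0.942, against 0.95 to 0.974 among the other 3 KC libraries and 0.987 to 0.995 among the splenic libraries. The summed RPM of the Kupffer cell identity list was 35472, 36589, 14435 and 38279 in the 4 KC libraries, lowest in replicate 3. The summed RPM of hepatocyte markers was 2149, 1933, 6284 and 1979 in KCs and 138 to 144 in splenic cells, and that of liver sinusoidal endothelial cell (LSEC) markers 6859, 9729, 15351 and 7088 against 311 to 368. Both sums were highest in KC replicate 3. The B cell sum was 774, 737, 1370 and 919.6 against 38.6 to 41.1 RPM, whereas the neutrophil sum was lower in KCs, at 159, 328, 87.2 and 176 against 1426, 2641 and 1236. Of 10 genes of pancreatic acinar cells, chosen after their values were seen, the summed RPM was 10958, 147, 232 and 10369, high in KC replicates 1 and 4, against 2.81 to 4.12 in splenic cells. Over all genes tested, 33.5% were called higher in KCs and 23.1% lower. Of the marker lists, 14 of 15 hepatocyte genes and 17 of 18 LSEC genes tested were higher in KCs. At 0 in every splenic library were 11 hepatocyte genes, among them Alb, Ttr and Cyp2e1, and 5 LSEC genes. Such genes passed the filter on low values through KC libraries alone and could not have been called lower. Higher calls also covered 10 of 11 stellate cell, 6 of 7 cholangiocyte, 10 of 10 B cell, 11 of 12 T cell, 9 of 12 conventional dendritic cell, 4 of 8 plasmacytoid dendritic cell and 4 of 5 erythroid genes. The NK cell list, with 4 of 11 genes higher, and the platelet list, with 2 of 5, lay near the share of all genes, and 1 of 4 plasma cell genes was higher. Lower calls covered 12 of 14 neutrophil genes, and 4 of 8 eosinophil, basophil and mast cell genes were lower and 1 higher. All 12 genes of splenic red pulp and marginal zone macrophages were higher in KCs, several of them also KC genes. In bulk samples, more cells of a type and more RNA per cell cannot be told apart.

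**Figure D1:**
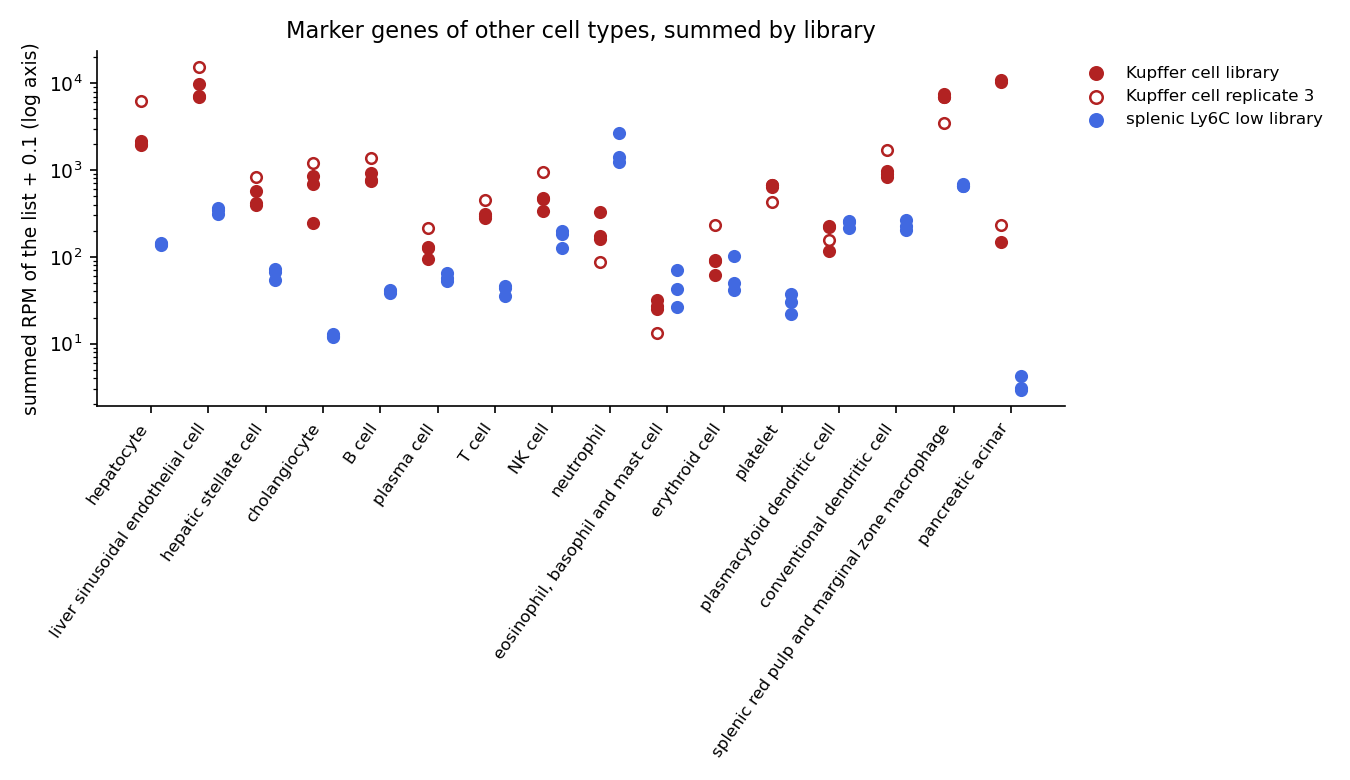
Summed RPM plus 0.1 (log axis) of marker genes of other cell types and of pancreatic acinar genes in each of the 7 libraries, with 1 point per library. KC replicate 3 (open circle) is highest for hepatocyte and LSEC markers and lowest for neutrophil markers, and the pancreatic sum reaches 10958 RPM in KC replicate 1.

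The 2 cell populations differed in a large part of the genes measured. At over 1.5-fold and a limma adjusted p under 0.05, 4102 genes were higher in KCs, 33.5% of the genes tested, and 2828 were lower, 23.1%. Higher calls made up 59.2% of all calls. Of the 4102 genes called higher, 596 were at 0 in all splenic libraries and passed the filter through KC libraries alone. On RPM as deposited, with no scaling factor, the counts were 5462 and 1542, or 78.0% higher. The median of all genes was 0.11 on the log2 scale in the main comparison and 0.52 on RPM as deposited, so that a change close to the threshold depends on the scaling. RPM values are printed as deposited, whereas the test divides them by factors of 1.11 to 1.17 in KC and 0.84 to 0.852 in splenic libraries, so a gene with somewhat higher RPM in KCs can have a log2 fold change near 0. Over 4-fold, 1693 genes were higher and 505 lower. On RPM as deposited, without the scaling of the test, all 4 KC libraries lay above all 3 splenic libraries for 5867 genes and below them for 1929. Without KC replicate 3, 3883 genes were higher and 2826 lower, and 3681 and 2664 of the main calls remained. KC replicate 3 was the highest of the KC libraries in 2063 of the 4102 genes higher in KCs and the lowest in 841. Separate mice per library are not stated, so p-values measure the spread between these samples.

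**Figure D2:**
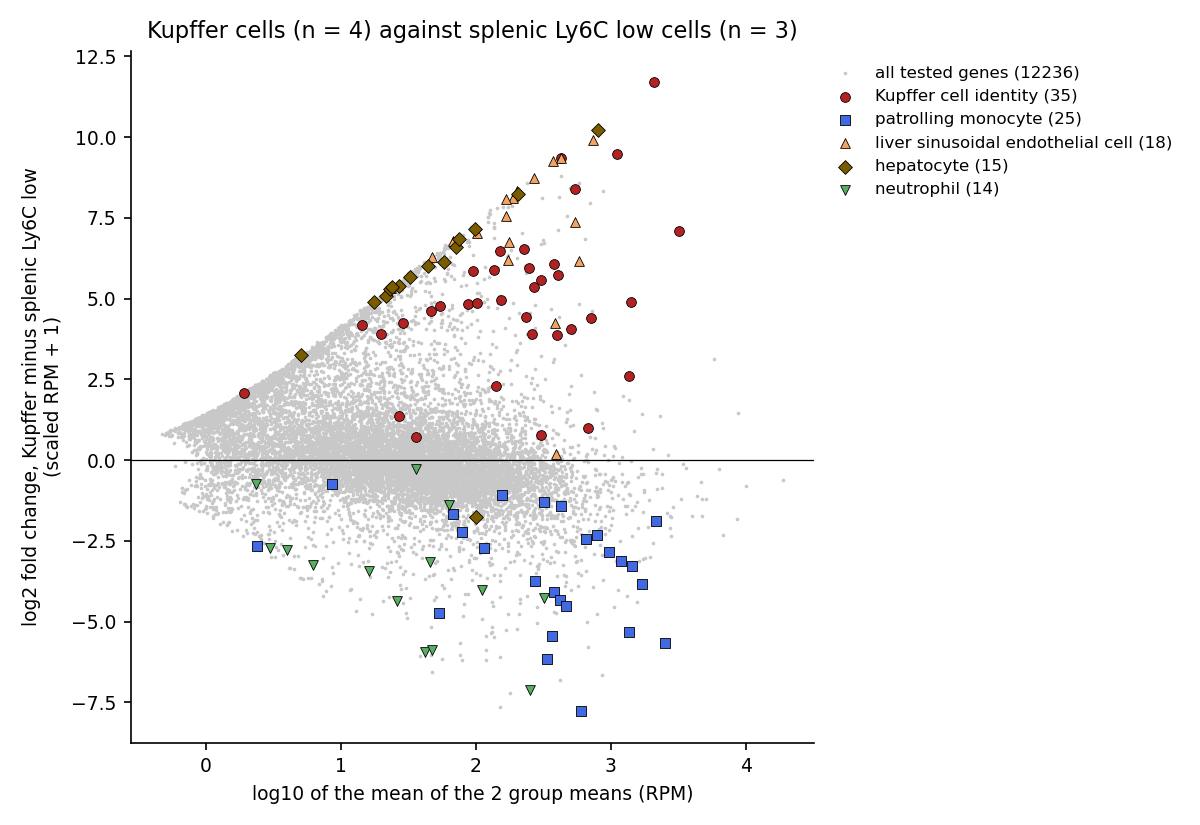
Log2 fold change (KCs minus splenic Ly6C low macrophages) against the log10 of the mean RPM of both groups, with 1 grey point for each of the 12236 genes tested and coloured symbols for Kupffer cell identity, patrolling monocyte, LSEC, hepatocyte and neutrophil genes. The highest point is Clec4f at 11.70 and the lowest is Ace at -7.78.

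The largest rises held KC genes and genes of other liver cells side by side. The 15 genes with the largest rise were Clec4f, Alb, Clec4g, Vsig4, Cdh5, Ptprb, Igfbp7, Oit3, Ehd3, Tspan7, Dab2, Folr2, Gpr182, Cela2a and Ahsg. Of these, 7 stand on a marker list of another cell type, among them Alb and Ahsg, secreted by hepatocytes, and Clec4g, Ptprb, Oit3 and Gpr182 of LSECs. That count depends on the lists. Igfbp7, Ehd3, Tspan7 and Dab2 are on none of them. KC replicate 3 stood at 2.14, 2.58, 2.3 and 2.01 times the mean of the other KC libraries for these genes, and their cell source was not tested. KC replicate 3 was the highest KC library for 10 of the 15 and the lowest for 4. Alb stood at 1093, 974, 3408 and 996 RPM in KCs and at 0 in the 3 splenic libraries. Clec4g stood at 877, 1232, 2662 and 1150 RPM against 0.349, 0.206 and 0. Both were highest in replicate 3, like the hepatocyte and LSEC sums, of which they are themselves a part. The share of other liver cells in these values was not tested. Cela2a, a pancreatic elastase, stood at 3290, 31.2, 76.8 and 3632 RPM, high in KC replicates 1 and 4.

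The 15 largest falls included Ace, Tiam2, Cyp2ab1, Ngp, Napsa, Ip6k3, Sstr4, Ly6i, Pglyrp1, Epha4, Serpinb10, Gm31814, Gm16120 and Clec4e. Napsa, an aspartic protease, stood at 4.92, 8.73, 22.4 and 6.54 RPM in KCs and 859, 855 and 798 in splenic cells. Tiam2, an exchange factor for the GTPase Rac, stood at 0.983, 0, 4.45 and 0.168 RPM against 309, 293 and 301. In both the 3 splenic libraries lay close together and far above the 4 KC libraries. Ngp, a granule protein, is the only one of the 15 on a marker list of another cell type, that of neutrophils. It stood at 10.2, 0, 1.57 and 10.9 RPM against 405, 753 and 332. Ngp was highest in splenic replicate 2 like the neutrophil sum, which includes Ngp itself, and the part of neutrophils in it was not tested.

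The KC identity genes were higher in KCs without exception among those tested. 35 of 36 members passed the filter on low values and each was called higher, with a median log2 fold change of 4.82, against 33.5% and 0.11 over all genes tested. Among them, 2 were at 0 in every splenic library and passed the filter through KC libraries alone. Clec4f, a C-type lectin found on KCs alone among mouse macrophages, stood at 4823, 4819, 1674 and 5470 RPM in KCs and at 0 in every splenic library, at least 20100-fold higher when the splenic mean is set at a floor of 3 reads per library. Vsig4, the complement receptor CRIg that captures opsonised bacteria from the blood, stood at 2313, 2156, 1239 and 3165 RPM against 2.73, 0.343 and 1.48 (log2 fold change 9.49 ± 0.37, SE, adjusted p = 8.4e-09). Cd5l, a secreted protein of tissue macrophages also called AIM, stood at 7317, 8187, 2098 and 7779 RPM against 41.5, 24.7 and 24.4. For all 3 genes the KC and splenic libraries did not overlap, and KC replicate 3 was the lowest KC library, as it was for 31 of the 35 list members. The median of the list was 0.401 times as high in replicate 3 as in the mean of the other 3 KC libraries. Without replicate 3 all 35 calls remained, with a median log2 fold change of 5.2.

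Folr2, the folate receptor beta of resident macrophages, stood at 1173, 1475, 536 and 1195 RPM against 2.87, 0.274 and 1.896. Clec1b, the lectin receptor CLEC-2, which is also a platelet gene, stood at 562, 539, 297 and 557 RPM against 5.31, 4.25 and 4.99. C6, a component of the membrane attack complex, stood at 1002, 824, 325 and 1050 RPM against 9.37, 10.8 and 7.52. Each showed the same order, with replicate 3 lowest among KCs and no overlap with splenic cells. Cdh5, VE-cadherin, is expressed by KCs but is also an LSEC gene and stands on both lists. It was at 869.9, 1071, 733 and 759 RPM against 0.07, 0.137 and 0.14, and unlike the other LSEC markers it was lowest in KC replicate 3. Mertk, a receptor that binds apoptotic cells, had a log2 fold change of 4.95 ± 0.32 (SE, adjusted p = 2.6e-07). Spic, a transcription factor of macrophages that recycle heme, differed least among these key genes, at 37.5, 49.8, 33.3 and 50.2 RPM against 12.02, 13.7 and 8.78.

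In the other wild-type sorts, Clec4f, Vsig4 and Cd5l were far below their KC levels. Clec4f had a mean of 8.09 ± 6.07 RPM (SD, n = 3) in hepatic Ly6C low macrophages, 0.107 ± 0.0929 in hepatic Ly6C high macrophages and 0 in splenic Ly6C high macrophages. Vsig4 had 22.6 ± 4.78, 0.265 ± 0.241 and 1.25 ± 0.494 RPM in the same order. Cd5l had 54.8 ± 13.8, 1.17 ± 0.392 and 16.7 ± 1.53 RPM. Id3, which encodes a regulator required for KC development, did not share this pattern. It was at 691, 808, 729 and 828 RPM in KCs and 45.8, 33.2 and 33.7 in splenic Ly6C low macrophages, and at 492 ± 149 RPM in hepatic Ly6C low and 649 ± 120.3 in hepatic Ly6C high macrophages. C1qb, of the first complement component, was at 628 ± 172 RPM in hepatic Ly6C low macrophages, against 1442 to 3600 in KCs.

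**Figure D3:**
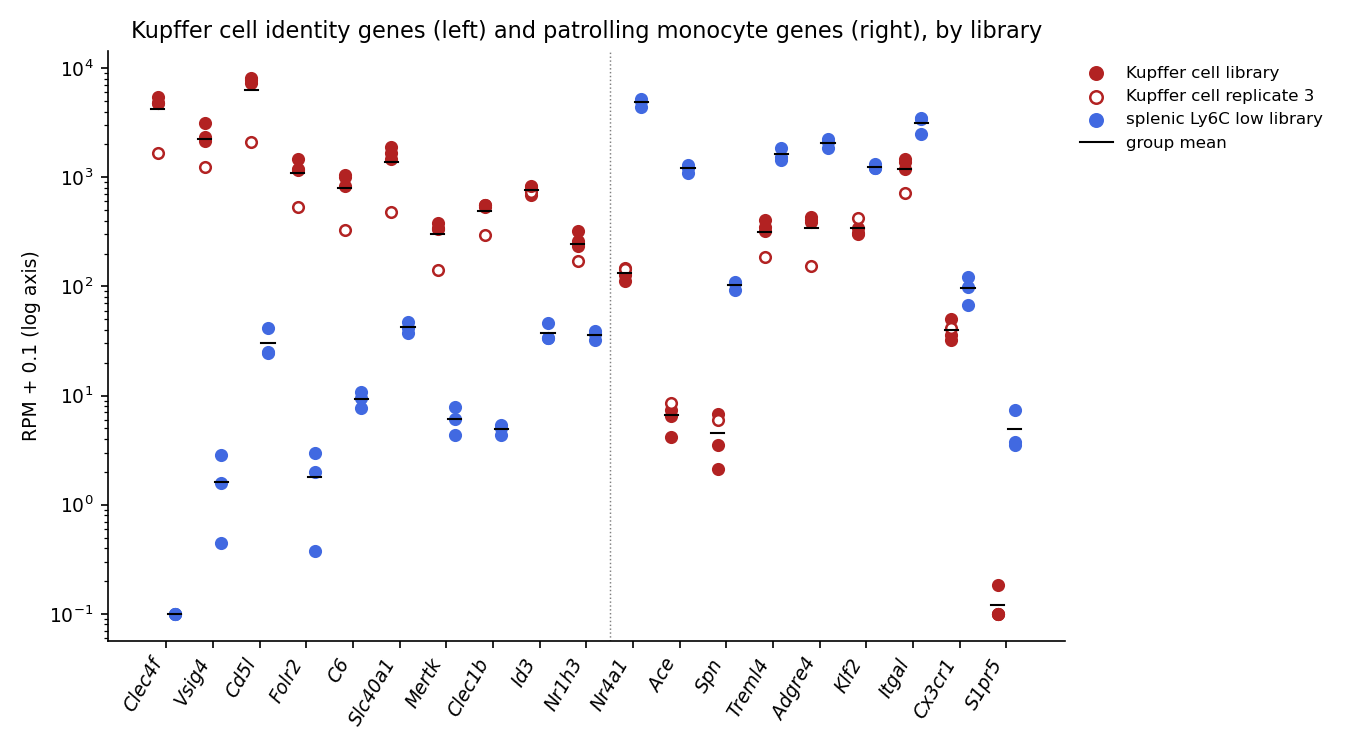
RPM plus 0.1 (log axis) of Kupffer cell identity genes (left) and patrolling monocyte genes (right), with 1 point per library, KCs and splenic Ly6C low macrophages in separate colours and a line at the group mean. The KC points lie above the splenic points for the identity genes and below them for the patrolling genes, with KC replicate 3 as an open circle.

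Genes that mark patrolling Ly6C low cells were lower in KCs. 24 of 25 tested members were called lower, with a median of -3.12, against 23.1% and 0.11 over all genes tested. The member not called was Plcb1, a phospholipase named after its values were seen. Nr4a1, the nuclear receptor on which these cells depend, stood at 126, 148, 144 and 112 RPM in KCs and 5028, 4421 and 5241 RPM in splenic cells (log2 fold change -5.65 ± 0.14, SE, adjusted p = 9.0e-10). Ace, angiotensin-converting enzyme, fell furthest of all genes, at 7.29, 6.41, 8.38 and 4.03 RPM against 1218, 1297 and 1099. Pglyrp1, a peptidoglycan recognition protein, stood at 11.5, 12.4, 14.9 and 7.97 RPM against 679, 615 and 691. In these genes KC replicate 3 lay inside or just above the range of the other KC libraries.

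Spn, the sialophorin CD43 used to gate patrolling cells, stood at 6.63, 3.41, 5.85 and 2.01 RPM against 107, 110.3 and 92.7. S1pr5, a receptor needed for these cells to leave the bone marrow, was at 0 in KC replicates 2 to 4, with 1 read in replicate 1, and at 3.63, 7.27 and 3.44 RPM in splenic cells. Some genes of the list kept a sizeable level in KCs. Treml4, a receptor for dying cells, stood at 352, 322, 187 and 406 RPM against 1548, 1442 and 1867, and Adgre4, an adhesion receptor, at 391, 408, 155 and 428 RPM against 2100, 1842 and 2246. Both were lowest in KC replicate 3. Cx3cr1, the fractalkine receptor, differed less, at 49.8, 36.02, 41.7 and 32.04 RPM against 97.99, 66.8 and 122 (log2 fold change -1.66 ± 0.22, SE). Itgal, the integrin chain of LFA-1, stood at 1385, 1199, 716 and 1465 RPM against 3525, 2483 and 3412, and Klf2, a factor of quiescence and migration, at 311, 345, 424 and 304 against 1202, 1210 and 1334. None of these groups overlapped.

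Nr4a1 and Ace were also above their KC levels in the other wild-type sorts. Nr4a1 was at 5938 ± 791 RPM in hepatic Ly6C low, 5024 ± 284 in hepatic Ly6C high and 1789 ± 20.6 in splenic Ly6C high macrophages (mean ± SD, n = 3), all above the 112 to 148 RPM of KCs. Ace was at 519 ± 78.2, 270.0 ± 23.5 and 252 ± 28.9 RPM in the same order. Treml4 was at 936 ± 198, 369 ± 91.6 and 209 ± 10.3 RPM, and both Ly6C high means lay inside the KC range of 187 to 406 RPM.

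Among genes of classical monocytes, the precursors of Ly6C low cells, 4 of 16 tested members were higher and 9 lower. These shares were 25.0% and 56.2%, against 33.5% and 23.1% over all genes tested. Ccr2, the chemokine receptor that marks them, did not pass the test, at 31.1 to 61.2 RPM in KCs and 23.8 to 31.9 in splenic cells. It passed on RPM as deposited (log2 fold change 0.73), and it stood at 486 ± 116 RPM in hepatic Ly6C high macrophages. Vcan, a proteoglycan of monocytes, did not pass either, at 0.737 to 2.97 RPM against 0.909 to 2.88. F13a1, coagulation factor XIII, was lower, at 6.96, 19.6, 13.9 and 13.3 RPM against 14.5, 46.9 and 18.6, with overlap between the groups. The call was lost on RPM as deposited (log2 fold change -0.83) and without splenic replicate 2 or KC replicate 1, where the log2 fold change of F13a1 was -0.78 and -0.99. Cd93 and Fcgr1 were the largest rises of the list, and Clec4e, the receptor Mincle, the largest fall, at 1.56, 2.25, 2.096 and 2.18 RPM against 149, 162 and 145. Fcgr1, the high-affinity IgG receptor CD64, stood at 319, 289, 103 and 302 RPM against 59.97, 57.8 and 51.2, lowest in replicate 3.

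Bases upstream of the start of 4 of these genes are shown because they head the identity and patrolling lists or carry a searched motif close to the start. All 4 sequences are the 250 bases before the RefSeq gene start of build GRCm38.p6, written 5′ to 3′ on the gene's strand, and capitals mark a match to a motif on either strand. Clec4f (chr6:83656117-83656366, minus strand) holds the letters TGGGAA of the RBPJ site, the DNA partner of Notch, 35 bases before its start. Nr1h3 (chr2:91195117-91195366, minus strand), the gene of LXR-alpha, holds that site in both orientations, 113 and 86 bases before the start. Treml4 (chr17:48264045-48264294, plus strand) holds it 60 bases before the start, and Pglyrp1 (chr7:18884440-18884689, plus strand) holds the KLF letters CCACACCC 53 bases before the start.
Clec4f: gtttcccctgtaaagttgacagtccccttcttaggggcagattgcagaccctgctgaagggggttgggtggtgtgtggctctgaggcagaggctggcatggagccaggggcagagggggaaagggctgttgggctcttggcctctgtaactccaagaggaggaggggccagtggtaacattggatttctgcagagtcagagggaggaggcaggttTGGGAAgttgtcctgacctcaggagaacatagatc
Nr1h3: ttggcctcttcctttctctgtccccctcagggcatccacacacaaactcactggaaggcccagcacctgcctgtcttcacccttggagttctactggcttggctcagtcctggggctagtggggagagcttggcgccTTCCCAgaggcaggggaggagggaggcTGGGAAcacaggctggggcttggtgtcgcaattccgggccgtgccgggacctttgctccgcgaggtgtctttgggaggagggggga
Treml4: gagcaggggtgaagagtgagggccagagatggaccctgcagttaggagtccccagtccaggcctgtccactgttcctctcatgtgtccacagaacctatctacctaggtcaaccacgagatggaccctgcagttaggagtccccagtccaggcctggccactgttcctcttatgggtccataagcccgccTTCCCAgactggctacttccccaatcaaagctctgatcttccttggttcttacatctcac
Pglyrp1: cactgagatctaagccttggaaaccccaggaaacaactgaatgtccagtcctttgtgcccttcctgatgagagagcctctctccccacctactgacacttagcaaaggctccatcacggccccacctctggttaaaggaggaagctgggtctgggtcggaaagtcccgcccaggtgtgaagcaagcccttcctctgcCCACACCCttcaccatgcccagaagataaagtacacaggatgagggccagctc
The RBPJ letters occurred in 28.3% of all 27025 genes with a promoter window of 250 bases before and 50 after the start, in 30.2% of genes higher in KCs and in 25.9% of genes lower. They occurred in 8 of 28 identity genes and 7 of 21 patrolling genes with a window. The NR4A letters AAAGGTCA occurred in 1.7% of all windows, in 1.68% of those higher and 1.25% of those lower, and in no gene of either list. For PU.1, with the letters GAGGAAGT, the shares were 3.69%, 3.65% and 5.46%. For KLF factors, with the letters CCACACCC, they were 4.09%, 4.43% and 5.79%. Also searched were a MAF site (TGCTGAC), a SMAD site (GTCTAGAC), an E-box (CACGTG), an LXR element and an interferon response element, and part of the LXR element is contained in the NR4A letters. Both strands were searched, and a match is a description of the letters, not of binding.

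Transcription factors of the lineage moved in both directions. 16 of 45 tested members were called higher (35.6%, against 33.5% of all genes tested) and 22 lower (48.9%, against 23.1%). The median of -0.45 went to -0.000839 on RPM as deposited, with 18 higher and 20 lower. Nr1h3, the gene of LXR-alpha, stood at 263, 322, 169 and 234 RPM in KCs and 36.3, 31.98 and 38.7 in splenic cells (log2 fold change 2.28 ± 0.20, SE, adjusted p = 2.7e-06). Maf, a factor of resident macrophages, stood at 762, 867, 982 and 601 RPM against 26.1, 27.04 and 25.5. Tfec, of the MiT family, stood at 156, 167, 139 and 215 RPM against 2.24, 6.52 and 4.29, and Rxra, the partner of LXR, at 897, 979.7, 663 and 978 against 112, 151 and 126. In all of these every KC library lay above every splenic library.

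In the other direction, Klf4, needed for monocyte differentiation, stood at 40.1, 35.2, 30.6 and 39.9 RPM in KCs against 972, 481 and 809. Runx2 stood at 11.6, 5.99, 12.3 and 6.29 RPM against 194, 227 and 225. Spi1, the gene of PU.1, was also lower, at 579, 402, 465 and 611 RPM against 1582, 1440 and 1458 (log2 fold change -2.004 ± 0.18, SE, adjusted p = 2.7e-06). Zeb2, which holds macrophage identity across tissues, did not pass the test, at 451, 515, 566 and 522 RPM against 324, 349.7 and 353. Irf8, which drives monocyte and dendritic cell fates, did not pass at 549, 417, 345 and 465 RPM against 266, 149 and 268, but was called higher without KC replicate 3 (the log2 fold change of Irf8 was then 0.67) and on RPM as deposited (0.99).

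Complement genes were higher in KCs. 18 of 23 tested members were called higher (78.3%, against 33.5% of all genes tested) and 4 lower (17.4%, against 23.1%). The median was 4.02, or 4.18 with genes at 0 in a group placed at their bound. On RPM as deposited 19 were higher and 2 lower. The hepatocyte also secretes many complement proteins, and the hepatocyte marker sum was 2149, 1933, 6284 and 1979 RPM in KC replicates 1 to 4. C1qb, of the initiating complex, stood at 3217, 2868, 1442 and 3600 RPM against 74.2, 65.5 and 53.5, and C1qc at 33.99, 39.4, 17.5 and 22.98 against 0.419, 0.206 and 0.281, both lowest in replicate 3. C1qa was below the filter, at 0.573, 0.416, 0.262 and 0.419 RPM against 0.07, 0 and 0 (exact permutation test, two-sided p = 0.0571, the smallest that 4 against 3 libraries allow), a single amplicon read near 0 in KCs, where C1qb and C1qc were called higher. Cfp, properdin, which stabilises the alternative pathway, stood at 1185, 1202, 471 and 1194 RPM against 48.9, 46.3 and 39.1. Clu, clusterin, stood at 1473, 441, 2219 and 1471 RPM against 2.45, 4.39 and 1.69, lowest in replicate 2 and highest in replicate 3. C3, the central component, did not pass the test, at 641, 677, 1179 and 418 RPM against 391, 458 and 398, and passed on RPM as deposited (log2 fold change 0.71). The largest fall was Itgax, the chain of complement receptor 4, at 236, 88.02, 255 and 245 RPM against 835, 744 and 892.

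Receptors that take up modified lipoproteins, bacteria and aged cells were largely higher. The scavenger receptor list had 12 of 18 tested members higher (66.7%, against 33.5% of all genes tested) and 3 lower (16.7%, against 23.1%). Its median was 3.99. Marco, which binds bacteria, stood at 295, 369, 124 and 291 RPM against 3.704, 0.755 and 3.23, and Msr1, scavenger receptor A, at 45.3, 62.4, 26.9 and 27.5 against 0.978, 0.48 and 0.421. Mrc1, the mannose receptor, shared with LSECs, stood at 1352, 1600, 1340 and 1339 RPM against 44.6, 52.3 and 30.6, with KC replicate 3 inside the range of the others. Stab1 and Stab2, scavenger receptors of LSECs of which Stab2 stands on that marker list, were highest in KC replicate 3, with Stab2 at 289, 494, 519.8 and 199.7 RPM against 0.28, 0 and 0. Cd36, a receptor for oxidised lipoprotein, was lower, at 293, 245, 349 and 272 RPM against 563, 604 and 522.

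Apoptotic cell clearance was split, with 10 of 26 tested members higher and 10 lower. That is 38.5% each way, against 33.5% higher and 23.1% lower over all genes tested. The TAM receptors were among the higher genes, Mertk at 379.7, 345, 141 and 334 RPM against 7.76, 4.25 and 5.97 and Axl at 645, 527, 201 and 617 against 24.7, 17.7 and 21.6. Their ligand Gas6 stood at 135, 105, 331 and 147 RPM against 0.21, 0.274 and 0.351, and the ligand Pros1 at 31.9, 39.1, 53 and 44.1 against 11.7, 12.6 and 10.9. The receptors were lowest in KC replicate 3 and both ligands highest there. Havcr2, the phosphatidylserine receptor Tim-3, was lower, at 23.4, 15.5, 19.5 and 19.5 RPM against 109, 106 and 86.95.

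C-type lectins and Siglecs had 17 of 28 tested members higher (60.7%, against 33.5% of all genes tested) and 6 lower (21.4%, against 23.1%). Siglec1, sialoadhesin, stood at 875, 829, 319 and 982 RPM against 7.34, 6.59 and 5.97, and Clec9a, a lectin of conventional dendritic cells that binds dead cells, had a log2 fold change of 3.58 ± 0.20 (SE, adjusted p = 8.0e-08). The dendritic cell marker sum was 969, 831, 1714 and 890.5 RPM in KCs and 204 to 266 in splenic cells. Clec7a, the beta-glucan receptor Dectin-1, did not pass the test, at 1009, 799, 391 and 1021 RPM against 473, 542 and 512, where replicate 3 alone lay below the splenic values.

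Genes of heme and iron recycling had 11 of 19 tested members higher (57.9%, against 33.5% of all genes tested) and 4 lower (21.1%, against 23.1%). Their median was 1.01. Slc40a1, ferroportin, which exports iron from the macrophage, stood at 1677, 1470, 483 and 1886 RPM against 47.3, 41.5 and 37.4 (log2 fold change 4.39 ± 0.39, SE, adjusted p = 2.8e-06). Cd163, which takes up haemoglobin bound to haptoglobin, stood at 432, 658, 198 and 544 RPM against 13.1, 14.96 and 11.9. Hmox1, heme oxygenase, stood at 1120, 906, 509 and 1526 RPM against 362, 338 and 328, and Blvrb, the next step of heme breakdown, at 219.6, 232, 154 and 251 against 41.6, 31.8 and 31.3. Slc11a1, which carries iron out of the phagosome, was lower, at 988, 953, 433 and 1229 RPM against 1727, 1620 and 1642. So was Bach1, the heme-sensitive repressor of Hmox1, with a log2 fold change of -2.11 ± 0.16 (SE, adjusted p = 7.6e-07). Hamp, the hepatocyte hormone hepcidin that degrades ferroportin, had the largest rise, at 29, 16.3, 47.7 and 24.2 RPM against 0.07, 0 and 0, highest in replicate 3 like the hepatocyte sum. Slc40a1 was at 19.7 ± 3.22 RPM in hepatic Ly6C low and 3.05 ± 1.77 in hepatic Ly6C high macrophages.

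LXR targets, which carry cholesterol and lipid out of the cell or remodel its fatty acids, were mostly higher. 17 of 25 tested members were called higher (68.0%, against 33.5% of all genes tested) and 3 lower (12.0%, against 23.1%), with a median of 1.64. Abca1, the cholesterol efflux pump, stood at 460.0, 444, 179 and 444 RPM against 80.2, 89.97 and 80.3, with replicates 1, 2 and 4 close together and replicate 3 well below them. Abcg1, the pump that works beside it, did not pass the test, at 416, 329, 226 and 494 RPM against 292, 271 and 261. Apoc1, an apolipoprotein, stood at 1586, 1459, 990.2 and 1145 RPM against 6.36, 8.65 and 6.81, and Apoe at 836, 728, 623 and 758 against 207, 390.1 and 207. Scd1, a fatty acid desaturase also high in hepatocytes, stood at 309, 318, 417 and 306 RPM against 33.9, 26.01 and 23.7, highest in replicate 3. Srebf1, which drives fatty acid synthesis, did not pass, at 93.3, 87.9, 54.8 and 77.3 RPM against 48.6, 38.6 and 45.7, and passed on RPM as deposited (log2 fold change 0.79). Arl4c fell by 2.50 and Elovl5 by 1.74 on the log2 scale.

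Sterol synthesis showed no shared direction, with 5 of 21 tested members higher (3 without splenic replicate 2) and 8 lower and a median of -0.41. These shares were 23.8% and 38.1%, against 33.5% and 23.1% over all genes tested. On RPM as deposited 6 were higher and 4 lower, with a median of 0.02. Srebf2, the factor that drives the pathway, was at 20.6, 28.2, 24.97 and 22.5 RPM against 79.5, 54.01 and 75.1.

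The Toll-like receptors split by receptor. Besides the receptors, the list holds their co-receptors, adaptors, kinases, chaperones and transporters, so its counts are not counts of receptors. The list had 8 of 29 tested members higher (27.6%, against 33.5% of all genes tested) and 12 lower (41.4%, against 23.1%). On RPM as deposited 13 were higher and 8 lower. Tlr12, a receptor for a profilin of parasites, stood at 135, 121, 89.3 and 174 RPM against 0.769, 1.24 and 0.913 (log2 fold change 5.69 ± 0.25, SE, adjusted p = 1.7e-08). Tlr13, which in mice senses bacterial ribosomal RNA, stood at 18.2, 21.8, 14.1 and 14.6 RPM against 107, 86.5 and 74.5 (log2 fold change -2.75 ± 0.20, SE, adjusted p = 5.4e-07). Tlr7, a sensor of single-stranded RNA and nucleosides, was also lower, at 181, 114, 74.1 and 171 RPM against 479, 298 and 331. Tlr9, the DNA sensor, did not pass the test, at 129, 90.6, 114 and 96.5 RPM against 68.7, 74.7 and 76.6, nor did Unc93b1, the chaperone of these receptors, at 1691, 1225, 728 and 1392 against 880.2, 731 and 839. Tlr4, the endotoxin receptor, stood at 157, 181, 111 and 217 RPM against 52.9, 51.2 and 59.5. Slc15a4, an endolysosomal transporter needed for Tlr7 and Tlr9 signals, was lower, at 58.7, 56.5, 37.2 and 52.4 RPM against 217, 168 and 167. Tlr13 was at 37.3 ± 14.6 RPM in hepatic Ly6C low, 24.1 ± 1.39 in hepatic Ly6C high and 45.8 ± 1.198 in splenic Ly6C high macrophages, above the 14.1 to 21.8 RPM of KCs on average.

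Nucleases and nucleoside carriers of the lysosome were higher or not called for the most part, with 10 of 23 tested members higher and 3 lower. The exonucleases Pld3 and Pld4, which degrade single-stranded nucleic acid, moved apart, Pld3 at 166, 148, 58.7 and 153 RPM against 26.5, 25.7 and 22.1 and Pld4 at 505, 517, 289 and 533 against 1758, 2028 and 1871. Slc29a3, which carries nucleosides out of the lysosome, stood at 185, 156, 134 and 250.4 RPM against 47.2, 40.7 and 45.1. Dnase2a, the acid DNase, did not pass the test, at 174, 171, 70.5 and 213 RPM against 68.5, 65.8 and 67.6, but was called higher without KC replicate 3, where the log2 fold change of Dnase2a was 1.02, and on RPM as deposited (1.10). Dnase1l3, a secreted DNase that is also on the LSEC list, stood at 486, 572, 1293 and 650.3 RPM against 27.05, 25.5 and 26.3, highest in replicate 3.

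Other lysosomal genes moved in both directions. The cathepsins and their inhibitors had 8 of 16 tested members higher and 5 lower, or 3 lower without splenic replicate 1 and on RPM as deposited. Ctsd stood at 5303, 3510, 1721 and 4291 RPM against 881, 991 and 1046 and Ctsl at 638, 691, 771 and 696 against 54.3, 64.03 and 55.5, whereas Cst3, the secreted inhibitor cystatin C, was lower, at 3324, 2369, 2582 and 3537 against 10609, 10132 and 11461. Ctsb, a lysosomal thiol protease, did not pass, at 5106, 5741, 2476 and 4330 RPM against 5123, 4848 and 4729. Lysosomal hydrolases and membrane proteins had 12 of 39 tested members higher and 10 lower, or 30.8% and 25.6%, close to the 33.5% and 23.1% of all genes tested, but 18 higher and 5 lower on RPM as deposited. Lyz2, lysozyme, stood at 5980, 3916, 2913 and 7073 RPM against 11388, 13557 and 11632, and Acp5, an acid phosphatase, at 559, 608, 452 and 743 against 131, 152 and 118. The subunits of the V-ATPase, the proton pump of the lysosome, had 2 of 15 higher (4 without KC replicate 3) and 3 lower (1 without splenic replicate 1), and 5 and 1 on RPM as deposited.

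MHC class II genes were higher. 14 of 17 tested members were called higher (82.4%, against 33.5% of all genes tested) and 1 lower (5.88%, against 23.1%), with a median of 1.62. H2-Ab1, a chain of the class II molecule, stood at 1390, 875, 927 and 1159 RPM against 143, 112 and 126, and Cd74, the invariant chain, at 14593, 10837, 12602 and 17364 against 3461, 3762 and 3678. Ciita, the factor that controls these genes, stood at 204, 162, 236 and 205 RPM against 29.8, 38.3 and 31.7. B cells and dendritic cells also express these genes at high levels, and both marker sums were higher in KC libraries. H2-Ob, which B cells express, was highest in KC replicate 3, at 102, 89.7, 229 and 129.6 RPM against 20.2, 15.6 and 17.1, as was the B cell sum. In hepatic Ly6C low macrophages, H2-Ab1 was at 1386 ± 352 RPM and Cd74 at 18480 ± 3706. The member lower in KCs was Ctss, cathepsin S, at 1821, 1626, 828 and 1822 RPM against 1990, 2104 and 1934, a call lost on RPM as deposited, where the log2 fold change of Ctss was -0.47.

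**Figure D4:**
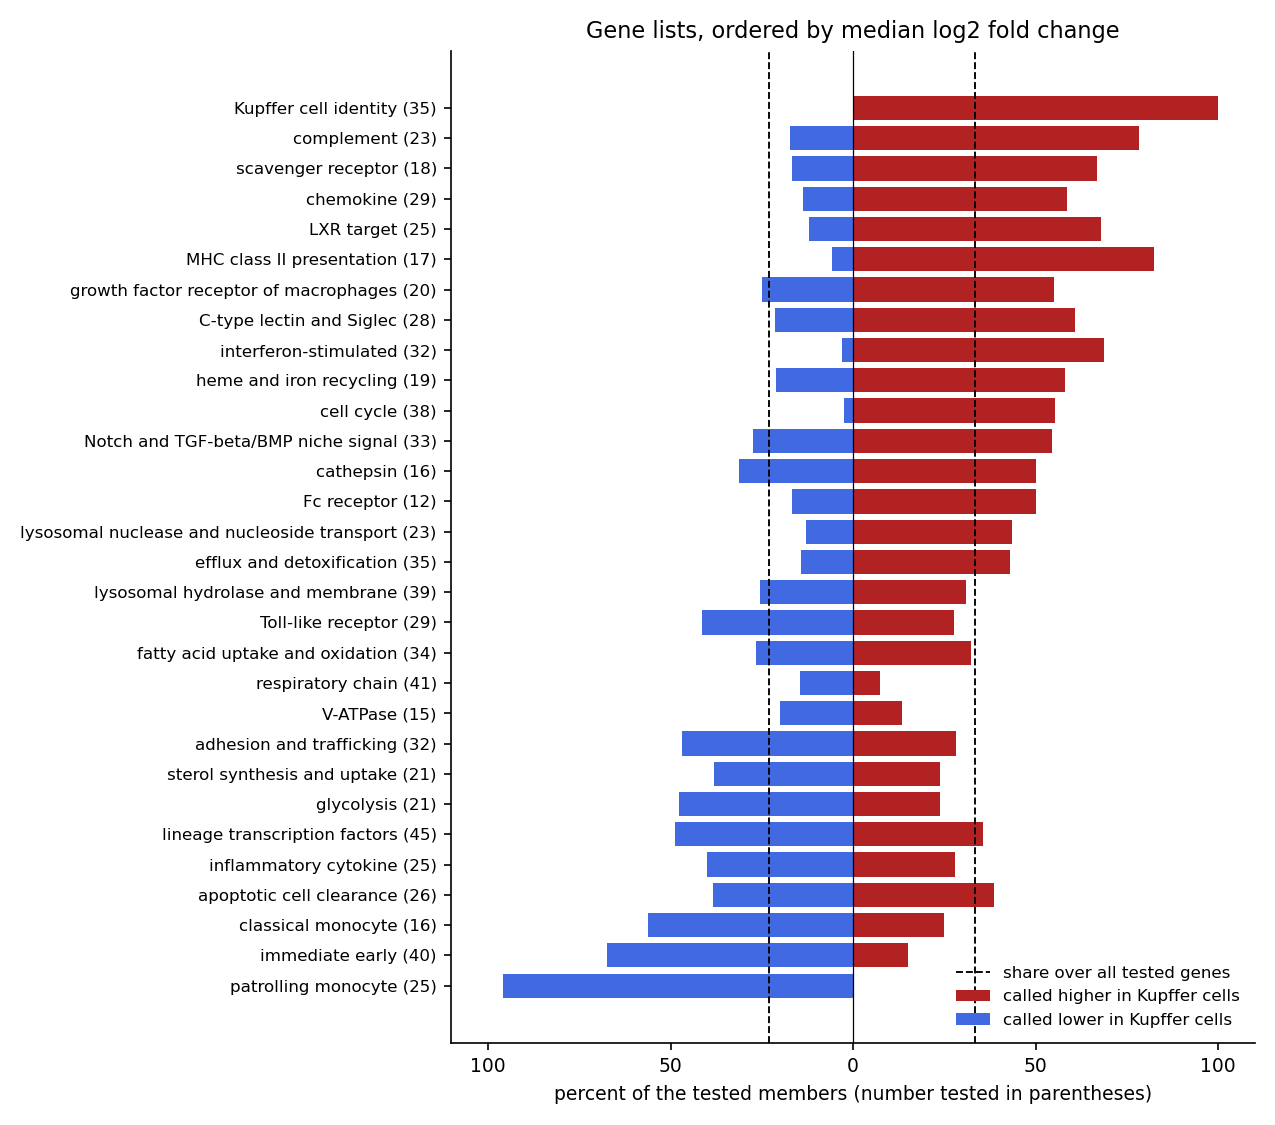
Share of tested members called higher (right) and lower (left) in KCs for each gene list, in percent, with dashed lines at the background of 33.5% and 23.1% of all genes tested. The identity list stands with every tested member higher and the patrolling list at 96.0% lower, whereas the Toll-like receptor, sterol, V-ATPase and respiratory chain lists have more members lower here and more higher on RPM as deposited.

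Activating and inhibiting Fc receptors did not move as a group, with 6 of 12 tested members higher and 2 lower. The higher ones included Fcer2a and Fcrla, which are also on the B cell list, and the B cell sum was higher in KC libraries. Fcer1g, the common signalling chain of activating Fc receptors, stood at 1284, 1151, 1159 and 1730 RPM against 4127, 4557 and 3778, and Fcgr2b, the inhibitory receptor, at 9.83, 13.3, 13.9 and 7.63 against 27.7, 27.9 and 28.3. Fcgr3, an activating IgG receptor, did not pass the test, at 656, 591, 332 and 682 RPM against 308, 372 and 318, and passed on RPM as deposited (log2 fold change 0.71). Pigr, which hepatocytes and bile duct cells use to carry IgA, stood at 104, 85.4, 225 and 75.3 RPM and at 0 in all splenic libraries, at least 586-fold higher against the floor.

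Genes of adhesion and trafficking had 9 of 32 tested members higher (28.1%, against 33.5% of all genes tested) and 15 lower (46.9%, against 23.1%). The median of -0.39 went to 0.04 on RPM as deposited. Itgb2, the beta chain of leukocyte integrins, stood at 491, 462, 359 and 453 RPM against 2881, 2646 and 2935, and Itga4, of the integrin VLA-4, at 291, 235, 246 and 269.6 against 1264, 869 and 1039. Cxcr4, the receptor for the retention signal Cxcl12, stood at 174, 142, 259 and 168 RPM against 2240, 2710 and 2445 (log2 fold change -4.204 ± 0.19, SE, adjusted p = 2.2e-08). Selplg, the selectin ligand, stood at 106, 110.4, 81.3 and 112 RPM against 339, 258 and 289. Vcam1 was higher, at 205, 214, 79.8 and 182 RPM against 48.99, 60.5 and 50.1, and S1pr1, also an endothelial gene, at 128, 143, 217 and 110.2 against 3.63, 3.98 and 3.93. Pecam1, an LSEC marker that splenic cells also carried, did not pass the test, at 318, 455, 821 and 396 RPM against 300.5, 324 and 266.

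Chemokines and their receptors were mostly higher, with a median of 2.02. Of 29 tested members 17 were higher (58.6%, against 33.5% of all genes tested) and 4 lower (13.8%, against 23.1%). Ccl24, an eosinophil attractant, stood at 302, 475, 137 and 298 RPM against 2.87, 0.618 and 1.41, and Cxcl13, which draws B cells, at 125, 159, 97.1 and 135 against 4.75, 0.686 and 4.495. The largest falls were Ccrl2, a receptor that binds chemerin without signalling, at 28.3, 35.5, 37.6 and 23.6 RPM against 209, 229 and 229, and Ccl9, at 87.9, 51.7, 67.5 and 104 against 528, 482 and 531. Ccl24 also stood at 191 ± 53.4 RPM in hepatic Ly6C high macrophages.

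Inflammatory cytokine genes had 7 of 25 tested members higher (28.0%, against 33.5% of all genes tested) and 10 lower (40.0%, against 23.1%). On RPM as deposited the counts were 9 and 9. Il18bp, the secreted inhibitor of interleukin-18, stood at 673, 624, 185 and 659 RPM against 7.48, 7.69 and 7.796, and Il18 itself at 144, 93.8, 55.9 and 151 against 35.2, 35.96 and 32.9. Il1a and Il1b moved apart, Il1a at 87.7, 89.6, 98.7 and 89.99 RPM against 1.96, 4.12 and 1.41 and Il1b at 214, 212, 183 and 226 against 311, 317 and 348. Tnf, at 0.923 to 1.64 RPM against 1.48 to 2.196, and Il10, at 6.99 to 13.6 against 4.61 to 7.52, did not pass the test. Tnfrsf1b, the second receptor for Tnf, was lower, at 391, 345, 231 and 490.1 RPM against 2682, 2407 and 2477.

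Niche signals of the Notch and TGF-beta families held both ligands and receptors. 18 of 33 tested members were called higher (54.5%, against 33.5% of all genes tested) and 9 lower (27.3%, against 23.1%), with a median of 0.77. The ligands were highest in KC replicate 3 along with the LSEC sum, Dll4 at 40.9, 42.6, 89.7 and 48.3 RPM against 0.21, 0.618 and 0.211 and Bmp2 at 248, 344, 623 and 200.2 against 1.47, 1.24 and 1.33. Bmp2 is on the LSEC list and so is part of that sum. Eng, a co-receptor on the LSEC list, stood at 782, 1089, 1987 and 754 RPM against 10.5, 10.5 and 9.06. Acvrl1, the receptor Alk1 for BMP9 and BMP10, was higher and did not share that order, at 87.6, 88.3, 35.1 and 51.3 RPM against 7.55, 8.92 and 6.74, lowest in replicate 3. Smad6, a target and inhibitor of BMP signals, stood at 22.6, 23.4, 25.3 and 20.97 RPM against 0.839, 1.304 and 0.492. Of the Notch receptors, Notch1 was higher, at 46.2, 49.9, 80.3 and 43.9 RPM against 6.64, 15.1 and 9.06, and Notch2 lower, at 225, 183, 172 and 205 against 805, 797 and 791. The Notch targets Hes1 and Nrarp were lower, Hes1 at 81.3, 96.8, 83.3 and 91.2 RPM against 158, 153 and 155 and Nrarp at 9.83, 15.9, 27.2 and 15.5 against 74.8, 90.6 and 73.8. Tgfbr1 was lower, at 41.9, 51.6, 34.8 and 30.7 RPM against 70.1, 121 and 96.9, and Tgfbr2 was not called, at 139 to 171 against 129 to 162.

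**Figure D5:**
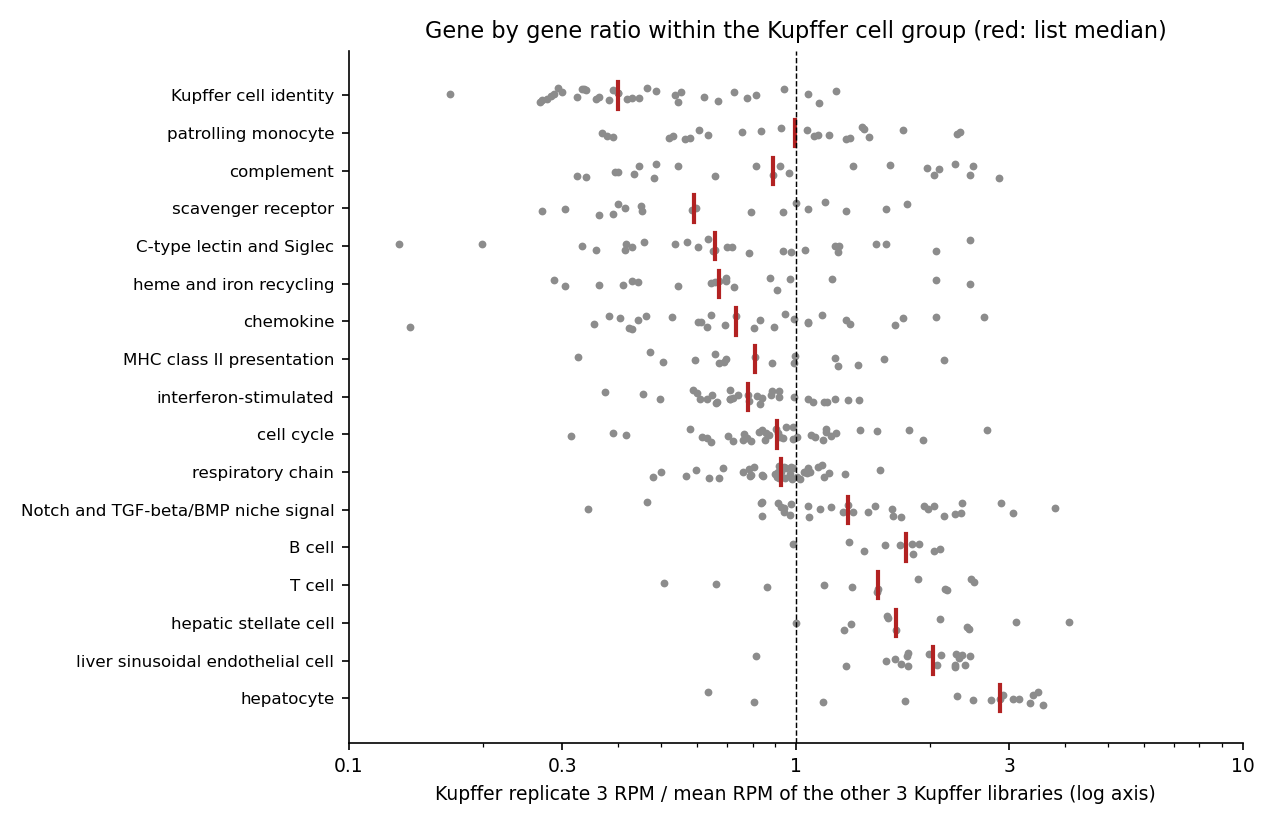
RPM of KC replicate 3 divided by the mean of the other 3 KC libraries (log axis), for each gene of several lists, with the list's median marked. The medians are 0.401 for Kupffer cell identity, 2.87 for hepatocyte and 2.03 for LSEC markers.

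Growth factor receptors and factors of macrophages included Csf1r, the receptor on which both populations depend, which was not called, at 2104, 1967, 795 and 2178 RPM against 1982, 1380 and 1519. Igf1 stood at 283, 305, 122 and 190.0 RPM against 3.91, 5.97 and 3.65. Csf2ra and Csf2rb, the chains of the GM-CSF receptor, were lower, Csf2ra at 452, 340.4, 245 and 586 RPM against 1280, 1101 and 1334 and Csf2rb at 91.3, 81.7, 28.8 and 72.5 against 202, 192 and 182. Kdr, the VEGF receptor on the LSEC list, stood at 271, 399, 403 and 264 RPM against 0.489, 0.137 and 0.773. In the whole list 11 of 20 tested members were higher and 5 lower.

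Immediate early genes, which respond to stimulation within minutes, were lower in KCs. 6 of 40 tested members were called higher and 27 lower, with a median of -2.12, and on RPM as deposited 7 were higher and 25 lower. Fos stood at 298, 164, 419 and 350.3 RPM against 3399, 2446 and 2870, and Jun at 304, 159, 319.9 and 264 against 1818, 1028 and 1579. Dusp1, a phosphatase that ends MAP kinase signals, stood at 169, 139, 304 and 180.5 RPM against 2964, 2729 and 3104 (log2 fold change -4.39 ± 0.23, SE, adjusted p = 4.7e-08). Atf3 stood at 98.7, 102, 106 and 74.9 RPM against 792, 861 and 857, and Zfp36, which destabilises cytokine messages, at 381, 248, 288 and 466 against 4022, 1256 and 2835. Egr1 was nearer, at 191, 148, 544 and 247 RPM against 403, 279 and 433, where KC replicate 3 lay above the splenic values. The Egr1 call was lost on RPM as deposited (log2 fold change -0.56) and without any of 5 of the 7 libraries, where the log2 fold change of Egr1 ranged from -1.01 to -0.75. Egr3, a relative of Egr1, was higher in KCs, at 19.99, 12.98, 46.1 and 38.1 RPM against 4.12, 4.32 and 3.51. Fos and Atf3 were not low in the other macrophages sorted from liver, with Fos at 4666 ± 1417 RPM in hepatic Ly6C low and 6846 ± 805 in hepatic Ly6C high macrophages. Atf3 was at 2836 ± 614 and 3753 ± 338 RPM in these groups.

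Interferon-stimulated genes were higher in KCs, with a median of 1.01. Of 32 tested members 22 were higher (68.8%, against 33.5% of all genes tested) and 1 lower (3.12%, against 23.1%). Ifit1 stood at 64.2, 69.96, 73.7 and 67.7 RPM against 7.41, 8.17 and 6.39, and Irf7, the factor that amplifies the interferon response, at 758, 861, 582 and 838 against 181, 209 and 196. Ifi44 and Oasl1 were the largest rises, Ifi44 at 62.7, 50, 80.7 and 62.1 RPM against 1.82, 1.58 and 2.599. Over the list, KC replicate 3 stood at 0.374 to 1.38 times the mean of the other KC libraries and was the lowest of them for 20 of 32 members. Zbp1 was lower in KCs, at 86.6, 86.9, 74.2 and 94.9 RPM against 121, 118 and 123, a call lost on RPM as deposited. Ifit1 stood at 74.1 ± 15.03 RPM in hepatic Ly6C high and 28.02 ± 3.199 in hepatic Ly6C low macrophages.

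Cell cycle genes were higher as well, with a median of 0.84. Of 38 tested members 21 were higher (55.3%, against 33.5% of all genes tested) and 1 lower (2.63%, against 23.1%). Mki67, present in dividing cells, stood at 25.1, 49.2, 26.98 and 29.9 RPM against 4.96, 13.04 and 5.27, and Top2a at 34.3, 40.3, 35.02 and 32.1 against 13.5, 19.1 and 8.71. Cdk1 stood at 29.2, 44.6, 31.8 and 35.8 RPM against 6.29, 11.3 and 5.55, with the KC libraries above the splenic ones. Ccnd1, which hepatocytes and endothelial cells also express, had the largest rise, at 127, 166, 209 and 118 RPM against 4.33, 2.88 and 4.64, and Ccnd3, the cyclin D of leukocytes, was lower, at 139.6, 191, 287 and 149 against 507, 609 and 548. Mki67 was at 112 ± 4.64 RPM in splenic Ly6C high macrophages.

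Metabolic lists had no shared direction. Of glycolysis, 5 of 21 tested members were higher (3 without splenic replicate 3) and 10 lower, and 6 and 6 on RPM as deposited. The main shares were 23.8% and 47.6%, against 33.5% and 23.1% over all genes tested. Eno3, an enolase of patrolling cells, stood at 20.97, 18.1, 24.7 and 23.3 RPM against 727, 721 and 712, and Slc16a3, the lactate exporter, at 16.4, 19.1, 6.898 and 7.13 against 174, 129 and 184. Hk3, the hexokinase of myeloid cells, was higher, at 329, 321, 128 and 329 RPM against 73.5, 82.6 and 77.1. Of fatty acid uptake and oxidation, 11 of 34 were higher and 9 lower, shares near those of all genes tested, and 15 and 4 on RPM as deposited. Fabp7, a fatty acid binding protein that is also on the identity list, stood at 183, 271, 119 and 189.6 RPM against 1.89, 1.24 and 1.33, and Pdk4, a brake on pyruvate use, at 27.6, 19.5, 65.6 and 15.4 against 0.07, 0 and 0. Of respiratory chain subunits, 3 of 41 were higher (7.32%, against 33.5% of all genes tested) and 6 lower (14.6%, against 23.1%). On RPM as deposited the counts were 13 and 1, so the direction of that list rests on the scaling. Efflux and detoxification genes had 15 of 35 tested members higher and 5 lower (8 lower without splenic replicate 2). These shares were 42.9% and 14.3%, against 33.5% and 23.1% over all genes tested. Among the higher ones was Fmo1, a liver monooxygenase, at 52.4, 69.8, 103 and 56.8 RPM and at 0 in all splenic libraries, at least 338-fold higher against the floor.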

How the data were processed

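Total RNA of sorted cells (1 ng) was made into libraries with the Ion AmpliSeq Transcriptome Mouse kit and sequenced on an Ion Proton. The authors mapped reads to mm10 with the AmpliSeqRNA plug-in and deposited 1 table of RPM, read counts scaled to the total mapped to the panel, for 23930 genes in 29 libraries. Whole reads were recovered from these values (100.0% within 0.1 reads), at 11451876 to 12207718 reads in Kupffer cell libraries and 14237202 to 14572065 in splenic ones.

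Genes that reached 1 RPM in 3 or more of the 7 libraries were tested with limma 3.58.1 (lmFit and eBayes with trend, R 4.3.3) on log2(RPM divided by a relative log expression factor, plus 1), two-sided, with Benjamini-Hochberg adjustment over 12236 genes and no replicate block. Fold changes are on this scale and understate those of low genes. Factors were 1.11 to 1.17 in Kupffer cell and 0.84 to 0.852 in splenic libraries. The printed RPM values are as deposited. Bounds against a group at 0 use a floor of 3 reads per library, which covers counting error only. Genes below the filter were given an exact permutation test over samples.

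Count tests on the recovered reads called 4129 genes higher and 2723 lower (edgeR 4.0.16) and 4245 and 2727 (DESeq2 1.42.0). On simulated data for 4 against 3 libraries, with 10652 genes, limma recovered 65 of 100 genes changed by 1 on the log2 scale and 100 of 100 changed by 2, and called 7 of 10452 unchanged genes. Every simulated gene and library had the same relative spread, few genes were changed and no library was set apart.

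The members and lists were chosen with earlier results of these data known, so lists are described by counts and medians and not tested. Named genes were the 15 largest rises and 15 largest falls, the key genes and the 2 largest rises and falls of each list, the sort antigens and the sex genes. The 15 largest each way had an adjusted p under 0.05 and at least 10 RPM on average in the higher group. Their groups did not overlap on RPM as deposited. Of 934 listed symbols 881 were found, 5 of them under an older symbol. Rnaset2a, Rnaset2b and the Ly6c genes were not analysed, and a few other genes that the rule names are not reported here. Promoter sequences are from RefSeq (GRCm38.p6), and 9326 of the tested genes had a window.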

Additional observations from a re-analysis of the deposited data

Results flagged for a closer look

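Of 169 values and sums tested for a library far from the rest of its group, 25 passed the 95% critical value of Dixon's test for 4 samples. For a single value chance passes about 1 in 20. The 169 are not independent, as all come from the same 4 libraries and some sums hold flagged genes, such as Alb, so the 25 are not separate results. The value given is the gap to the nearest library as a share of the range over the 4 Kupffer cell libraries. Replicate 3 was the outlying library in 21 of them, lowest in 15 and highest in 6.

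Replicate 3 was lowest for the summed RPM of Kupffer cell identity genes (0.882), of splenic red pulp and marginal zone macrophage genes (0.838) and of platelet genes (0.831). It was also lowest for Abca1 (0.944), Adgre4 (0.866), Cd5l (0.857), Cfp (0.977), Clec1b (0.911), Csf1r (0.848), Fcgr1 (0.861), Hk3 (0.956), Il18bp (0.898), Pld3 (0.834), Pld4 (0.885) and Timd4 (0.881). It was highest for the sums of hepatocyte (0.95) and conventional dendritic cell (0.845) genes and for Alb (0.951), Scd1 (0.887), Dll4 (0.848) and Notch1 (0.834). Replicate 2 was lowest for Itgax (0.89) and highest for Mrc1 (0.949) and for Fth1 (0.888), which was below 1 RPM in every library. Replicate 1 was highest for S1pr5 (1.0), which rests on 1 read. The part of other cells in the values of replicate 3 was not tested.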

How the results depend on the processing

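A threshold of 4-fold left 1693 higher and 505 lower. Of the other settings, scaling moved the counts furthest. Genes lower in Kupffer cells numbered 1542 on RPM as deposited and 1858 with factors from 6341 genes at 10 RPM or more in all 7 libraries, a choice made after the data were seen, against 2828 in the main comparison. Both shift the median of all genes upward, to 0.52 and 0.39 on the log2 scale, and 78.0% and 72.7% of calls were then higher. All 4102 higher calls and 1542 of the lower calls remained on RPM as deposited. Adding 0.1 in place of 1, using no filter, fitting all 29 libraries, and count tests on recovered reads kept both counts within 1.5 times. Leaving out 1 library gave 3554 to 3969 genes higher and 2527 to 2826 lower. Of 261 named genes called in the main comparison, 0 changed sign under a setting in which they were tested. Of 36 not called, 16 changed sign under 1 setting or more, such as Abcg1, from -0.09 to 0.36 on RPM as deposited. A replicate block gave 3892 higher and 2756 lower. Deviations of same-numbered libraries correlated at -0.0979 to 0.048 over 3 pairs, against -0.164 to 0.167 for other pairs. So few pairs cannot decide whether the numbers pair the samples, and the labels do not say. In the simulated data, which held no outlying library, 65 of 100 genes changed 2-fold were recovered. Kupffer cell replicate 3 stood apart in the real data, so that share need not hold here. C1qa, near 0 in all 7 libraries, could not be judged.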

Other observations

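Fth1, the ferritin heavy chain that iron-handling cells express at high levels, was listed at 0, 0.749, 0 and 0.084 RPM in Kupffer cell and 0, 0 and 0 in splenic libraries. It was named after its values were seen.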
